A study of Mus musculus with 6 samples.

Results

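Akr1c18, Hsd3b1, Akr1c14 and Aldh1a1, 4 enzyme genes of steroid and retinoid metabolism, were followed in UXT knockout primary mouse Sertoli cells. They were chosen by symbol from the 3257 genes of the authors' deposited table, with their changes known, and all 4 were found, each on a single row. The knockout (KO) libraries came from Sertoli cells of UXT KO animals that were infected with a virus carrying Cre recombinase. The wild-type (WT) libraries came from Sertoli cells of wild-type mice that were infected with an empty plasmid. Each group had 3 libraries, both were on the C57BL/6 background, and both had been enriched for Sertoli cells by differential plating. Cre reached only the KO cells, so loss of UXT and the Cre virus cannot be told apart. No age was given for the animals.

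Sertoli cells are the somatic cells that nurse germ cells inside the seminiferous tubule, and UXT, also known as ART-27, resembles prefoldin subunits. Steroid hormones are made from cholesterol. STAR carries cholesterol into mitochondria, CYP11A1 cleaves it to pregnenolone with electrons from ferredoxin (FDX1), and HSD3B1 turns pregnenolone into progesterone. In mouse, AKR1C18 reduces progesterone to a hydroxylated form with little activity at the progesterone receptor, and AKR1C14 reduces dihydrotestosterone to a weaker androgen. ALDH1A1 oxidizes retinaldehyde to retinoic acid, the vitamin A derivative that spermatogonia need to enter differentiation, and Sertoli cells are a known source of it. In the testis most steroid synthesis takes place in Leydig cells of the interstitium.

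The promoter sequences of the enzymes are shown because the data compare neighbouring genes that moved in opposite directions. Each is the 250 bases before an annotated start, from RefSeq on GRCm38.p6 (the mm10 build), written in the direction of transcription. Capitals in the first pair mark the runs of 8 bases, the longest, that the promoters of Akr1c18 and Akr1c14 had in common. Akr1c18 is at chr13:4150647-4150896 (minus strand), Akr1c14 at chr13:4059341-4059590 (plus strand), Hsd3b1 at chr3:98859795-98860044 (minus strand) and Aldh1a1 at chr19:20601718-20601967 (plus strand). The Akr1c14 window precedes a start at 4059591, inside the gene's annotated span, and the window of its outermost start at 4048991 was not used here.
Akr1c18: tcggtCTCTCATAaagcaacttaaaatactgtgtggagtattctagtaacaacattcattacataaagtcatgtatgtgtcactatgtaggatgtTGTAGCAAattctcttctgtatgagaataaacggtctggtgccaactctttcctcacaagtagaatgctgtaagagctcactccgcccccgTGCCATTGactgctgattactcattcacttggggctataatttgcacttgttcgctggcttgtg
Akr1c14: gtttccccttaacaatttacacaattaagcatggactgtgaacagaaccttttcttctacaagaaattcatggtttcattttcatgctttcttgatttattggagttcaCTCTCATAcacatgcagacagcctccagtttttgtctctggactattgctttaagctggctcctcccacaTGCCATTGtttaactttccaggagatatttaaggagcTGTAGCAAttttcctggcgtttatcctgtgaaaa
Hsd3b1: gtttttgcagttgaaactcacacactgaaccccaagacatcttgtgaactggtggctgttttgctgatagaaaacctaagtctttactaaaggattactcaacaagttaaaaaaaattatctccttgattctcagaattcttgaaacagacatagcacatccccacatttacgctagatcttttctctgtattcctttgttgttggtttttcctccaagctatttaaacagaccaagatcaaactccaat
Aldh1a1: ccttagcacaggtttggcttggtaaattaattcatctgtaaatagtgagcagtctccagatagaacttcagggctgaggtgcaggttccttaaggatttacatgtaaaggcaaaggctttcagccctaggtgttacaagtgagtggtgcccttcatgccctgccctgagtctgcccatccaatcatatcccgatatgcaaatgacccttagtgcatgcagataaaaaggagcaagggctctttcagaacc

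There were 3 shared runs, and TGCCATTG began 64 bases before the start of Akr1c18 and 71 bases before the start at 4059591 of Akr1c14. It was found on either strand in 0.859% of 32817 mouse promoters of the same length. The run was picked because both promoters held it, and whether such sharing is unusual was not tested. The following 4 motifs were searched on both strands: the steroid receptor half-site AGAACA, the nuclear receptor half-site AGGTCA, the AP-1 motif TGANTCA and the antioxidant response element core TGACNNNGC. They are held by 16.1%, 14.0%, 6.75% and 10.2% of the 32817 promoters. None of the 4 printed windows held a match to any of these motifs. A further RefSeq start of Aldh1a1 lies upstream, and its window, chr19:20492333-20492582 on the plus strand, had the AP-1 letters TGACTCA from 57 to 51 bases before that start. The share of G and C was 41.6% in the Akr1c18 window, 38.8% in Akr1c14, 36.4% in Hsd3b1 and 46.4% in the printed Aldh1a1 window, against a median of 52.4% over all promoters.

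The deposited value of each library was on a log2 scale, with a normalization that is not given in the sources used here. For most genes the difference between group means was smaller than the deposited log2 fold change (median ratio 0.58). The ratio was lower for some genes with low values, such as Paqr5 at 0.13. Fold sizes below are those of the authors' deposited table, and the values per library, always in the order of the replicate numbers, show the spread. The median value per library was 8.82 to 8.91 in KO and 9.15 to 9.18 in WT, and the median difference over all genes was -0.40 (KO minus WT). Every gene of the table had been selected on these libraries at a fold of at least 1.5. Read depth was unknown, and the level of Uxt was not analysed here, so the knockout is known from the labels alone. Whether the replicates were separate animals, separate cultures or one preparation is not said in the labels, so a p-value reflects replicate spread that may be technical only. In such bulk RNA, fewer cells of a type and less RNA per cell cannot be told apart.

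The enzymes on either side of progesterone were both higher in KO cells. Akr1c18 (gene ID 105349), which removes progesterone, had log2 values of 9.69, 9.26 and 9.77 in the KO libraries, against 7.30, 7.24 and 7.43 in the WT libraries. Every KO value lay above every WT value, and the closest were 1.83 apart. The means were 9.57 ± 0.27 in KO and 7.32 ± 0.10 in WT (SD, n = 3 each), a difference of 2.25. In the authors' deposited table Akr1c18 was 17.5-fold higher in KO, the rank 2 rise among 1047 higher genes. Since the enzymes were chosen for these changes, their differences are given as a description with no test.

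Hsd3b1 (gene ID 15492), which makes progesterone, had log2 values of 10.55, 9.36 and 10.60 in the KO libraries, against 7.99, 8.55 and 8.33 in the WT libraries. The groups did not overlap, but KO2 (KO replicate 2) stood more than 1 log2 unit below the other KO libraries and 0.82 above the highest WT library. The means were 10.17 ± 0.70 in KO and 8.29 ± 0.28 in WT (SD, n = 3 each), a difference of 1.88. Without KO2 the difference was 2.28. In the authors' deposited table Hsd3b1 was 5.0-fold higher in KO, rank 13 among the higher genes. KO2 was also the lowest KO library for Akr1c18, as it was for 54.0% of the 1044 genes called higher over the whole table (limma, Benjamini-Hochberg adjusted p under 0.05).

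Akr1c14 and Aldh1a1 were lower in KO cells. Akr1c14 (gene ID 105387), the androgen-reducing relative of Akr1c18, had log2 values of 6.79, 7.07 and 7.12 in the KO libraries, against 7.87, 7.97 and 7.99 in the WT libraries. Every KO value lay at least 0.75 below the lowest WT value. The means were 6.99 ± 0.18 in KO and 7.94 ± 0.06 in WT (SD, n = 3 each), a difference of -0.95. Akr1c14 was 4.10-fold lower in KO in the authors' deposited table, rank 409 among 2210 lower genes. After quantile normalization between libraries, which moved the median difference of all genes up by 0.33, the difference of Akr1c14 was -0.53.

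Aldh1a1 (gene ID 11668), the retinaldehyde dehydrogenase, had log2 values of 14.41, 14.43 and 14.96 in the KO libraries, against 15.29, 15.53 and 15.36 in the WT libraries. KO3 was the KO library nearest to WT, and it stood 0.33 below the lowest WT library. The means were 14.60 ± 0.31 in KO and 15.39 ± 0.12 in WT (SD, n = 3 each), a difference of -0.79. Aldh1a1 was 2.07-fold lower in KO in the authors' deposited table, rank 1381 among the lower genes. Groups without overlap, as all 4 enzymes had, were found for 97.5% of the genes in this selected table.

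**Figure D1:**
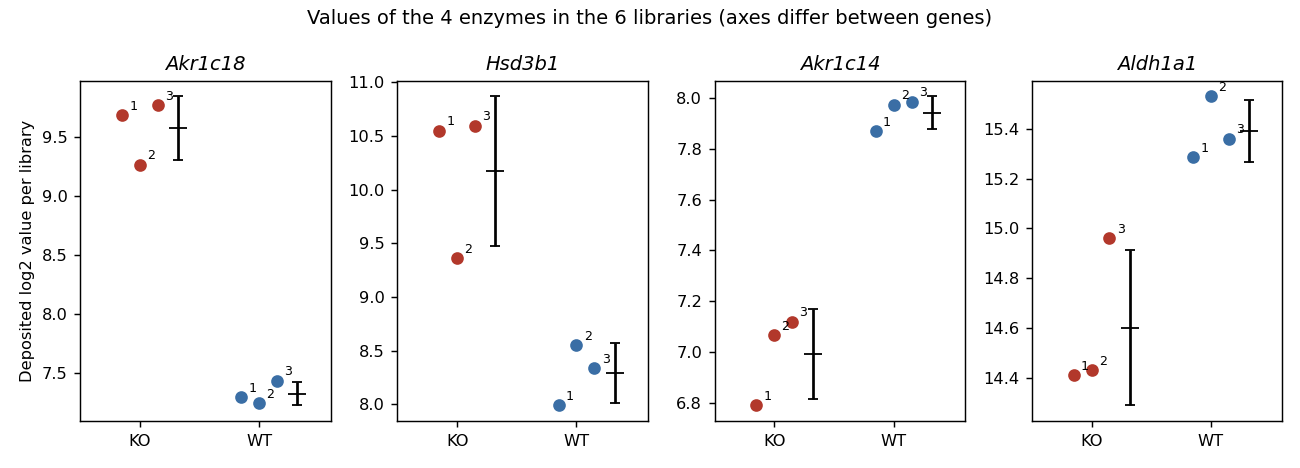
Deposited log2 value (vertical axis, own scale in each panel) of the 4 enzymes in the KO and WT libraries. Points are libraries with their replicate number, and the bar beside them is the mean with its SD (n = 3). Akr1c18 and Hsd3b1 stand higher in all 3 KO libraries, with KO2 the lowest of them, and Akr1c14 and Aldh1a1 stand lower.

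Akr1c18 and Akr1c14 are neighbours in a cluster of aldo-keto reductase genes on chromosome 13. On GRCm38 Akr1c14 spans 4048991 to 4090560 on the plus strand and Akr1c18 spans 4132615 to 4150646 on the minus strand. They lie 42.1 kb apart with 0 protein-coding genes between them. The log2 value of Akr1c18 minus that of Akr1c14 in the same library was 2.90, 2.20 and 2.65 in the KO libraries, against -0.57, -0.73 and -0.55 in the WT libraries. This quantity compares libraries and not the levels of the genes, since it is not known whether the values are per length. It was higher in every KO library than in every WT library, by 3.20 between the group means. That separation follows from the opposite changes for which both genes were chosen, so it adds no further result. Akr1c13, the next gene on the other side of Akr1c18 at 40.5 kb, was 3.16-fold lower in KO in the authors' deposited table, so the gene that was higher lay between a pair that was lower. The log2 value of Akr1c13 was 6.79, 6.86 and 7.09 in KO and 7.67, 7.69 and 7.59 in WT, a limma difference of -0.74 ± 0.10 (SE, adjusted p = 2.34e-04). After quantile normalization it was -0.31 (adjusted p = 0.0134). The other Akr1c genes of the cluster were not analysed here.

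**Figure D2:**
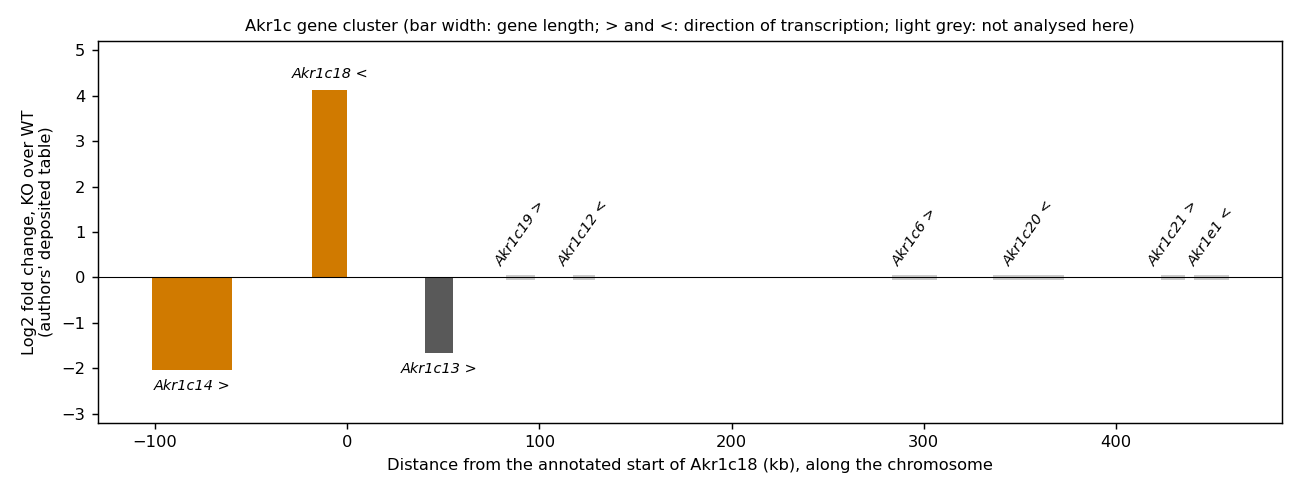
Log2 fold change, KO over WT, in the authors' deposited table (vertical axis) of the genes of the Akr1c cluster, drawn by distance in kb from the start of Akr1c18. Orange bars are Akr1c18 and Akr1c14, the dark grey bar is Akr1c13 and light grey marks genes not analysed here. Akr1c18 stands up between Akr1c14 and Akr1c13, which point down.

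Reads of similar genes can be assigned to the wrong copy, so the exact overlap of transcripts was counted in windows of 50 bases. Of 1205 such windows of Akr1c18, 0.581% occurred in transcripts of another gene, and 5.80% of 3190 windows of Akr1c14 did. The share was 4.86% for Hsd3b1 and 3.06% for Aldh1a1. Akr1c13 shared 24.2% of its windows, all of them with Akr1c12, so its value is less certain. Read length and the handling of reads with several matches are not given in the sources used here.

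Hsd3b1 lies on chromosome 3, from 98842356 to 98859794 on the minus strand, among other Hsd3b genes that were not analysed here. It was part of a fixed list of 27 genes for steroid hormone synthesis, of which 7 were in the table. Of the other 6, limma called 4 higher and 2 lower, beside 32.1% higher and 67.5% lower over all genes of the table. In the authors' deposited table their median log2 fold change was 0.68, against -0.88 for all genes. Fdx1, the electron donor of the cholesterol side-chain enzyme, had log2 values of 13.81, 13.62 and 13.34 in KO and 12.60, 12.55 and 12.52 in WT. It rose 3.0-fold in the authors' deposited table (limma difference 1.04 ± 0.11 SE, adjusted p = 6.36e-05). Star, which brings cholesterol into mitochondria, had values of 15.36, 15.19 and 14.98 in KO and 14.47, 14.62 and 14.44 in WT, and rose 2.01-fold in the authors' deposited table (limma adjusted p = 5.26e-04). Cyp11a1 had values of 14.56, 14.07 and 14.26 in KO and 13.71, 13.99 and 13.83 in WT. Its groups were only 0.09 apart, and it rose 1.61-fold in the authors' deposited table (limma adjusted p = 0.00758).

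Hsd3b7, a relative of Hsd3b1 that acts in bile acid synthesis, fell 2.04-fold, and the cytochrome b5 gene Cyb5a fell 1.90-fold in the authors' deposited table (limma adjusted p = 3.08e-04 and 1.38e-04). The fourth gene that rose was Por, named after its values were seen, which encodes the reductase that serves microsomal cytochrome P450 enzymes. Its values were 14.01, 13.87 and 14.13 in KO and 13.48, 13.69 and 13.51 in WT. Hsd3b1, Star and Cyp11a1 are also markers of Leydig cells. Of 14 Leydig markers 5 were in the table. Besides Hsd3b1, Star and Cyp11a1, the inhibin gene Inha and Vcam1 were both called lower, as were 67.5% of all genes. The summed linear level of the 5 was 58764 to 72461 in KO libraries and 45708 to 52075 in WT libraries. Without Hsd3b1 it was 57217 to 70964 in KO and 45454 to 51701 in WT, and the median difference of these 4 was -0.03. Star and Cyp11a1, already described, had the highest values of these 4, so the sum mostly reflects them. They were also the 2 of the 4 that were called higher, so the median joins rises and falls. The defining Leydig markers Insl3, Cyp17a1, Lhcgr and Hsd17b3 were not analysed here, and the part of Leydig cells in these values was not tested.

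Akr1c18 and Akr1c14 were on a fixed list of 31 genes for steroid reduction and inactivation, of which 8 were in the table. Of the other 6, 1 was called higher and 5 lower, beside 32.1% higher and 67.5% lower over all genes. In the authors' deposited table their median log2 fold change was -1.24, against -0.88 for all genes. Srd5a2, a steroid reductase that makes dihydrotestosterone, rose 3.25-fold in the authors' deposited table (limma adjusted p = 0.00328). Its values lay close together, at 5.21, 5.27 and 4.99 in KO and 4.81, 4.82 and 4.84 in WT. Hsd11b1, which regenerates active glucocorticoid, fell 2.92-fold in the authors' deposited table. Its values were 7.33, 7.49 and 7.16 in KO and 8.08, 8.10 and 8.05 in WT (limma adjusted p = 2.35e-04), and its limma difference of -0.75 became -0.32 after quantile normalization. Cyp7b1, an oxysterol hydroxylase, fell 2.47-fold in the authors' deposited table, with values of 9.92, 9.64 and 9.79 in KO and 10.90, 10.08 and 11.11 in WT (limma adjusted p = 0.00407). After quantile normalization 3 of the 6 were called lower and 1 higher, beside 1143 lower and 1049 higher of all 3257 genes.

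Of 20 steroid receptors, carriers and cofactors 3 were in the table, and all 3 were called lower, as were 67.5% of all genes. Shbg, the gene of androgen-binding protein, was down 17.2-fold, the membrane progestin receptor gene Paqr5 6.52-fold and its relative Paqr8 1.61-fold in the authors' deposited table (limma adjusted p = 4.13e-06, 1.99e-04 and 0.0117). The log2 values of Paqr5 were low and close together, at 4.19, 4.23 and 4.20 in KO and 4.58, 4.58 and 4.52 in WT. After quantile normalization the limma difference of Paqr5 was -0.16, against -0.36 before, and Paqr8 was no longer called (difference -0.09, adjusted p = 0.557). The progesterone receptor gene Pgr was not analysed here. In the wider aldo-keto reductase family, 6 of 20 genes were in the table. Besides Akr1c18 and Akr1c14, limma called 1 higher (Kcnab3, a potassium channel subunit, 1.67-fold in the authors' deposited table) and 3 lower. Over all genes 32.1% were called higher and 67.5% lower. The 3 were Akr1c13, the channel subunit gene Kcnab2 at 2.38-fold and Akr1b8 at 1.65-fold in the authors' deposited table. After quantile normalization Kcnab2 was not called (adjusted p = 0.125), and the limma difference of Akr1b8 was -0.21, against -0.47 before.

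Aldh1a1 was on a fixed list of genes that bind, take up or convert retinoids. Of 42 genes for retinoid metabolism 14 were in the table. Of the other 13, 9 were called lower, 3 were called higher and 1 (Rbp4, adjusted p = 0.128) was not called, beside 67.5% lower and 32.1% higher over the table. The share that was called lower, 69.2%, lay near that of all genes. In the authors' deposited table their median log2 fold change was -1.05, against -0.88 for all genes.

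Stra6, the membrane receptor for retinol on its carrier, had log2 values of 7.11, 7.14 and 7.09 in KO and 8.36, 8.60 and 8.35 in WT. It fell 6.82-fold in the authors' deposited table (limma difference -1.32 ± 0.10 SE, adjusted p = 1.01e-05). Lpl, a lipase that also frees retinol from its esters, fell 6.62-fold in the authors' deposited table (limma adjusted p = 1.36e-05). Dhrs3, which reduces retinaldehyde back to retinol, had values of 12.24, 12.22 and 11.92 in KO and 13.13, 13.15 and 13.27 in WT, and fell 3.0-fold in the authors' deposited table (limma adjusted p = 3.08e-05). Crabp2, a cellular carrier of retinoic acid named after its values were seen, fell 2.48-fold in the authors' deposited table (limma adjusted p = 4.02e-04). Those that rose were the alcohol dehydrogenase Adh7 at 2.87-fold, Rdh13 at 1.66-fold and the retinol saturase gene Retsat at 1.57-fold in the authors' deposited table (limma adjusted p = 0.00181, 6.95e-04 and 0.00157).

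The aldehyde dehydrogenase family had 7 of 21 genes in the table, and limma called the other 6 lower, as it did 67.5% of all genes, with folds of 1.67 to 2.02 in the authors' deposited table. Aldh1a7, which adjoins Aldh1a1 on chromosome 19 at a distance of 49.5 kb, fell 1.84-fold, Aldh1l2, a mitochondrial folate enzyme, 2.02-fold, and Aldh3b1 1.93-fold in the authors' deposited table (limma adjusted p = 0.00774, 8.27e-04 and 0.00205). Aldh1a7 shared 7.49% of its 50-base windows with Aldh1a1, and its difference turned to 0.14 after quantile normalization (adjusted p = 0.174). Under that normalization 3 of the 6 were called lower, beside 1143 of all 3257 genes. Aldh3b1 was also not called then (difference -0.04, adjusted p = 0.727). Aldh1a2, named after its values were seen, encodes another retinaldehyde dehydrogenase. It had log2 values of 13.24, 13.16 and 12.81 in KO and 13.77, 13.43 and 13.52 in WT. It fell 1.67-fold in the authors' deposited table (limma adjusted p = 0.00487), and was not called after quantile normalization (adjusted p = 0.0896).

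Of 24 genes for retinoic acid receptors and response 5 were in the table, and limma called all 5 lower, as it did 67.5% of all genes. After quantile normalization 3 of the 5 were called lower, beside 1143 of all 3257 genes. The chemerin gene Rarres2 fell 7.15-fold, the meiotic cohesin gene Rec8 5.38-fold and the transglutaminase gene Tgm2 3.99-fold in the authors' deposited table (limma adjusted p = 2.73e-05, 5.22e-04 and 5.57e-05). Tgm2 had log2 values of 14.26, 14.54 and 14.19 in KO and 15.72, 15.89 and 15.39 in WT. The retinoic acid receptor gene Rarb fell 1.66-fold in the authors' deposited table (limma adjusted p = 0.00513). Rec8 had low log2 values, at 4.56, 4.54 and 4.55 in KO and 4.85, 5.04 and 4.91 in WT. After quantile normalization the limma difference of Rec8 was -0.15, against -0.39 before. Rarb was then not called (adjusted p = 0.251), and it was named after its values were seen.

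**Figure D3:**
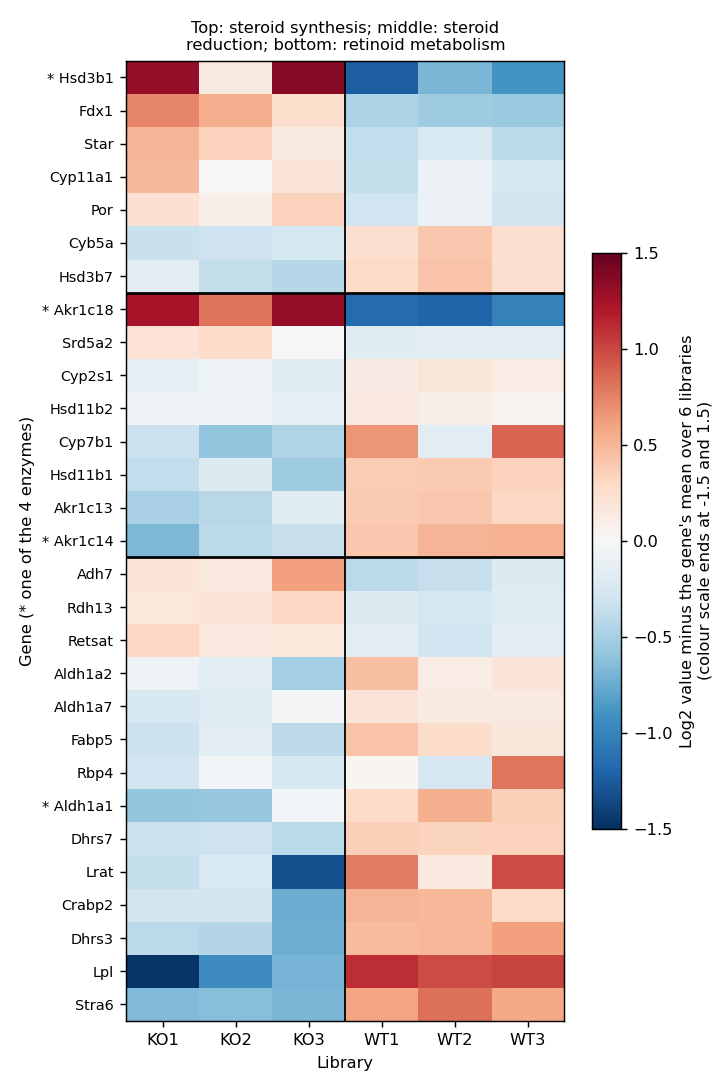
Log2 value minus the gene's mean over the 6 libraries (colour) for genes of steroid synthesis, steroid reduction and retinoid metabolism, by library with KO on the left. The 4 enzymes carry a star. Hsd3b1 and Akr1c18 are high in the KO columns, and KO2 is pale for Hsd3b1.

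Markers of Sertoli cells and of other cells differed between the same libraries, where 67.5% of all genes were called lower. Of 24 Sertoli cell markers 18 were in the table, with 17 called lower and 1 higher, and their summed linear level was 57816 to 78317 in KO libraries and 136671 to 182454 in WT libraries. All 16 macrophage markers were in the table and were called lower (sums of 10689 to 12518 in KO and 29842 to 38026 in WT), as were 15 of 16 endothelial markers (9016 to 10398 in KO and 15711 to 16814 in WT). Of 10 peritubular myoid markers 8 were in the table, all called lower (sums of 381367 to 438608 in KO and 534293 to 666048 in WT), and of 10 fibroblast markers 4 were, also all called lower (sums of 682369 to 1137270 in KO and 1422710 to 1584720 in WT). Of 13 germ cell markers 3 were in the table, with 1 called higher and 2 lower, and their sum was 4513 to 5376 in KO and 3130 to 4337 in WT. That sum was mostly Uchl1, 1.57-fold higher in KO in the authors' deposited table, where Kit was 4.19-fold and Sycp3 2.73-fold lower. The other sums also mostly reflect the genes with the highest values, such as Clu among the Sertoli cell markers, and are not levels of a cell type. The part of these cell types in the lower values of Akr1c14, Aldh1a1 and the retinoid genes was not tested.

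The genes whose profile was most like that of each enzyme were found by the root-mean-square distance over the 6 libraries, with each gene centred on its own mean. For Akr1c18 they were Vsig8 at 0.25, the guidance receptor gene Robo2 at 0.31 and the oxidative stress-induced gene Osgin1 at 0.33, where the median distance to all genes was 1.34. For Hsd3b1 they were the prolactin-family gene Prl2c2 at 0.29, Osgin1 at 0.34 and Adcyap1, which encodes the neuropeptide PACAP, at 0.35 (median 1.23). Prl2c2 has near-identical copies, so its value is uncertain. Akr1c18 and Hsd3b1 were 0.36 apart, at rank 5 and rank 4 in each other's order of likeness. Both had been chosen for a large rise, and the distance depends on the size of a change. Their nearness was therefore partly set by that choice.

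For Akr1c14 the nearest profiles were those of the microtubule gene Slain1 at 0.045, the collagen gene Col4a5 at 0.049 and the cholesterol exporter gene Abcg1 at 0.054, with a median of 0.34 over all genes. For Aldh1a1 they were the stress gene Gadd45g at 0.041, the adhesion gene Igsf11 at 0.051 and the ectonucleotidase gene Nt5e at 0.081, also with a median of 0.34. Gadd45g had values of 11.39, 11.40 and 11.82 in KO and 12.20, 12.49 and 12.27 in WT. Its highest KO value was in KO3, as for Aldh1a1, which was partly set by its choice as the nearest profile. KO3 was the highest KO library for 827 of the 2200 genes called lower. Akr1c14 and Aldh1a1 were 0.17 apart, at rank 134 in the order for Aldh1a1 and rank 274 in that for Akr1c14.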

How the data were processed

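RNA was sequenced from 3 KO and 3 WT libraries with a stranded messenger RNA kit, per the labels. Per the submitters' processing notes the tools were FastQC, STAR and DESeq2 (no versions given), on the mm10 build. The authors deposited 1 table of 3261 rows with log2 values per library, whose normalization is not given in the sources used here. Per the file headers it also held a log2 fold change, p-values and adjusted p-values of the authors' test, and a signed fold score (KO over WT, or minus the inverse). The 4 rows of 2 repeated symbols were left out, which leaves 3257 genes. The largest adjusted p-value of the authors was 0.0499.

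All 6 libraries entered one limma fit (version 3.58.1, R 4.3.3) that allowed a mean-variance trend, and p-values were adjusted over the 3257 genes by the Benjamini-Hochberg method. Genes were called at an adjusted p under 0.05. The fit was tested on simulated data. Since the genes had been selected on the same libraries, the calls are not independent evidence. The 4 enzymes, the lists and the tests were chosen with earlier results of these data known. Some listed genes are not reported here and were left out of the list counts. Named genes were the 4 enzymes, up to 3 higher and 3 lower genes of each list by fold, and the 3 nearest profiles of each enzyme, with exceptions said in the text. Summed levels add 2 to the power of each log2 value. Gene positions, promoters and transcripts came from RefSeq and GENCODE M21 on GRCm38. Alternatives were quantile normalization, a filter on low values, no trend, a stricter threshold, a replicate block, medians and leaving out each library. No pseudocount was needed on a log2 scale. No counts were used, so depth was unknown.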

Additional observations from a re-analysis of the deposited data

How the results depend on the processing

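Among the 4 enzymes no alternative turned a direction. Because their groups did not overlap, medians, leaving out a library and the replicate block could not have turned one. Only quantile normalization could have. Leaving out 1 library at a time gave differences of 2.15 to 2.40 for Akr1c18, 1.67 to 2.28 for Hsd3b1, -1.02 to -0.85 for Akr1c14 and -0.97 to -0.70 for Aldh1a1. Quantile normalization gave 2.60 for Akr1c18, -0.53 for Akr1c14 and -0.54 for Aldh1a1, against 2.25, -0.95 and -0.79. It left 1049 genes called higher and 1143 called lower of the 3257 in the table, against 1044 and 2200 before. The lower genes were 52.1% of the called genes, against 67.8% before, and these are not shares of all genes. Quantile normalization also left 3 genes called lower on each of the lists for steroid reduction, retinoic acid response and aldehyde dehydrogenases. It turned the differences of Hsd11b2 to 0.013, Cyp2s1 to 0.073, Rbp4 to 0.067, Aldh1a7 to 0.14 and Rarres1 to 0.10, and the cause was not tested. It raised those of Cyp11a1 to 0.72, Srd5a2 to 0.63, Adh7 to 1.07 and Kcnab3 to 0.71, against 0.45, 0.33, 0.63 and 0.43. Leaving out the lowest 25% of genes by mean value removed members of the lists. Steroid reduction then had 0 called higher and 3 lower, receptors and carriers 1 lower and retinoic acid response 3 lower.

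The replicate block gave 1045 genes higher and 2207 lower. Deviations of same-numbered libraries correlated at 0.18, -0.07 and -0.0039, and those of other pairs at -0.20 to 0.20. Whether same-numbered libraries were paired cannot be told from these values. The block changed no call of the 40 other genes on the pathway lists. Leaving out single libraries gave 1014 to 1034 genes higher and 2085 to 2158 lower, and called Rbp4 without WT2 (difference -0.60, adjusted p = 0.0235). With 3 libraries a group and unknown depth, counting error could not be given.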

Other observations

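Within the KO group, Aldh1a1 did not follow the library order of most retinoid genes. Of the 9 other retinoid metabolism genes called lower, 7 had their lowest KO value in KO3, where Aldh1a1, Aldh1a7 and Lpl had their highest. Over all 2200 genes called lower, KO3 was the lowest KO library for 40.2% and KO1 for 44.6%, and KO3 was the highest for 827. Some orders rest on small differences, as for Stra6, with 7.11, 7.14 and 7.09 in KO. Lrat, which stores retinol as esters and was named after its values were seen, had log2 values of 8.60, 8.72 and 7.63 in KO and 9.73, 9.09 and 9.93 in WT. These orders are among 3 libraries and were not tested.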
